A study of Mus musculus with 12 samples.

Results

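P3D8 and P3E3 are fibroblast lines of the mouse digit, and they are described here as they stood in untreated monolayer, before any BMP was added. Each line was grown from 1 cell of a lacZ+ fibroblast culture from P3, the terminal bone segment of the digit, so each stands for 1 clone and not for a class of cells. P3D8 and P3E3 monolayers were grown alike on fibronectin and were harvested at passage 6 and 80% confluence. Their medium held 2% serum with EGF and PDGF (10 ng/ml of each) and LIF (at 0.5 ng/ml). There were 3 libraries of each, and the labels do not say that these came from separate cultures, so the p-values measure the spread between these samples, which may be technical. The study's other 6 libraries, used below only beside these, came from P3D8 and P3E3 cells that were aggregated with 50 ng/ml BMP2 for 4 days and then given 50 ng/ml BMP9 to form cartilage. By the paper's methods both steps took place in suspension, in basal medium without the EGF, PDGF and LIF used for growth. Cartilage thus differed from monolayer in culture form, medium, time and BMPs, which cannot be told apart. Both lines carried lacZ and came from adult digits. The features described are the 4840 transcripts, of 106518 in the deposited table, whose normalized count averaged at least 10 over the 6 monolayer libraries. They belong to 4728 of the 35976 gene symbols in the table and held 99.6% to 99.7% of the normalized counts of each of these libraries. Of the entries that did not reach this level, 88890 were listed at 0 in all 6 libraries and 12788 were counted but averaged under 10.

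Fibroblasts build and remodel the fibrous matrix of connective tissue. They secrete fibrillar collagens, the proteoglycans that space the fibrils and the proteases that cut them, they hold on to this matrix through integrins, and they recruit blood cells with chemokines. Clones from 1 tissue can differ in all of these, and in the patterning factors that record where in the limb a cell came from. The study compared the cartilage that these clones form under BMPs, and the comparison below gives how they differed before that treatment.

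The 6 monolayer libraries held 7269748 to 7828774 counted reads. P3D8 libraries counted 11394 to 11694 transcripts, against 10905 to 11292 in P3E3 libraries, and the 10 most counted transcripts took 12.4% to 13.3% of the P3D8 reads and 9.86% to 10.4% of the P3E3 reads. Across the 4840 transcripts on the log2 scale, Pearson's r was 0.989 to 0.993 within P3D8, 0.990 to 0.993 within P3E3 and 0.928 to 0.944 between the clones. In replicate 3 of each clone, the line recorded in the sample's characteristics is that of the opposite clone, and so it is in replicate 1 of each cartilage. Libraries were grouped by title. The first principal component held 82.9% of the variance, P3D8 libraries lay on it at 28.7 to 34.7 and P3E3 libraries at -32.7 to -31.8, and the replicates 3 were found on the side of their titles, P3D8 at 28.7 and P3E3 at -32.7. Without these libraries 327 transcripts were higher and 84 lower in P3D8 by the thresholds given below, against 300 and 87 with them. Grouped by the recorded line instead, limma called 0 transcripts, and 48 (0.992%) had an unadjusted p under 0.05. Many genes have several transcript entries, among which reads can be lost: *Gapdh*, with 3 entries, was listed at 0 in all 6 libraries, so a 0 in such a gene is not read as absence.

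Both clones carried fibroblast genes, and few or no reads were counted on the markers of blood, vessel and epithelium. *Col1a2*, which encodes the second chain of collagen I, had 40668, 38881 and 44211 normalized counts in P3D8 and 34326, 37102 and 34812 in P3E3, and the mesenchymal factor *Twist1* had 932, 949 and 1001 in P3D8 and 911, 810.5 and 982 in P3E3. The fibroblast markers as a group were not level between the clones. Of 20 listed 11 were tested, and at an adjusted p under 0.05 (limma) 7 were higher in P3D8, 1 was lower and 3 did not pass, with a median log2FC (the log2 fold change, P3D8 over P3E3) of 0.93. Of all transcripts tested 26.7% were higher and 25.5% lower. All 20 summed to 150364 to 175202 in P3D8 and 83754 to 87241 in P3E3. All 12 endothelial markers were listed at 0, but only *Tie1* and *Cldn5* have 1 entry, so the 0 of the others is not read as absence. The 12 leukocyte markers summed to 1.96 to 7.07 in P3D8 and 2.96 to 4.22 in P3E3, and the 12 keratinocyte and epithelial markers to 19.2 to 28.9 in P3D8 and 3.02 to 5.93 in P3E3, where 5 and 8 of the 12 have 1 entry. The 13 glia and neuron markers summed to 12959 to 15990.0 in P3D8 and 3533 to 4086 in P3E3, nearly all of it *Stmn2*, which encodes a protein that binds tubulin. *Sox10* and *Gfap* were among the 6 of these markers listed at 0. Only 4 of the 13 were tested, of which 3 were higher in P3D8 and 1 did not pass (limma, median log2FC 1.87). Of the 14 smooth muscle and pericyte markers, summing to 7345 to 7516 in P3D8 and 2239 to 2407 in P3E3, most of the count was *Cspg4*, the NG2 proteoglycan. Only 3 of the 14 were tested, 2 higher and 1 lower in P3D8 (limma). Their median log2FC was 1.94, and 0.47 over the 2 with a mean of at least 50. The part of these markers in the results below was not tested. In bulk RNA, fewer cells of a type and less RNA per cell cannot be told apart.

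The clones differed in more than 1 of every 2 transcripts tested, and the large differences lay mostly on the P3D8 side. With limma on log2(normalized count + 1), 1290 transcripts were higher and 1233 lower in P3D8 at an adjusted p under 0.05 (26.7% and 25.5% of those tested, 52.1% together). The shares of 26.7% higher and 25.5% lower are those to set beside every gene list count below. With the study's fold threshold added, an absolute log2FC of at least 1.5, 300 were higher and 87 lower (6.20% and 1.80% of those tested). At a log2FC of 3 or more, 70 were higher in P3D8, and 10 were lower by as much. At 5 or more there were 12 higher and 0 lower. The 3 P3D8 and 3 P3E3 libraries did not overlap for 2898 transcripts (59.9%). The median log2FC of all transcripts was -0.01 and the median absolute log2FC 0.41. Of the 300 transcripts, 133 averaged under 10 in P3E3, and 33 of the 87 averaged under 10 in P3D8. The counts with fold threshold depend on the low end of the table. With a minimum mean of 50 they were 157 higher and 44 lower, with no minimum 583 and 182, and among genes with only 1 transcript entry 211 and 56. The plot of log2FC against mean count shows every transcript.

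**Figure D1:**
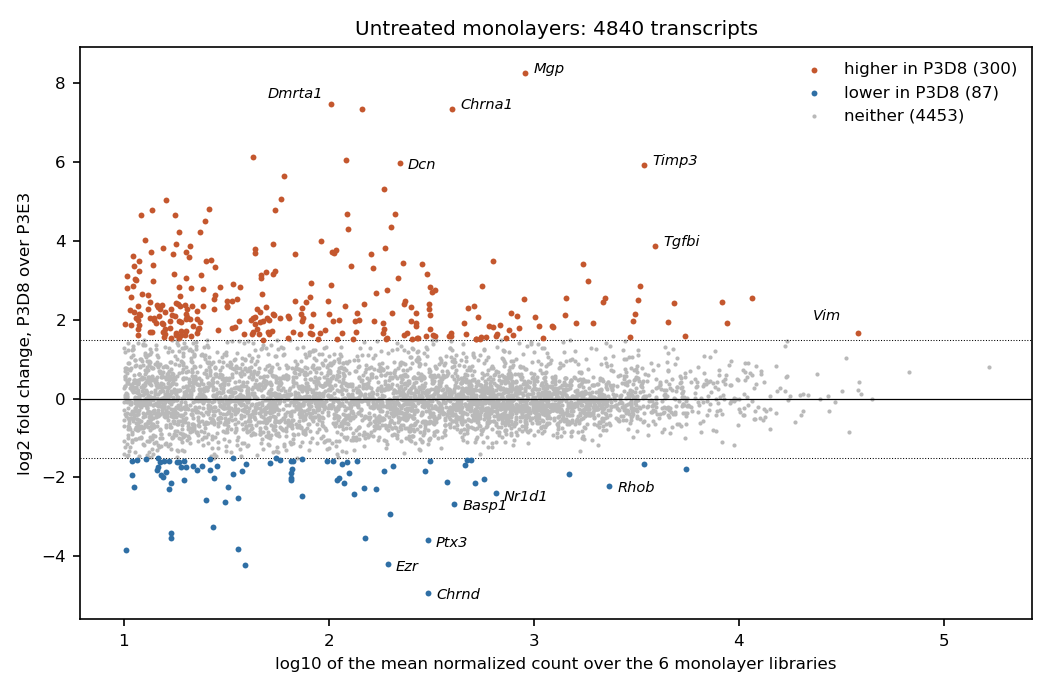
Each point is 1 of the 4840 transcripts, with the log10 of its mean normalized count over the 6 monolayer libraries on the x axis and its log2 fold change, P3D8 over P3E3, on the y axis. Dotted lines mark an absolute log2FC of 1.5, and of the transcripts past it with an adjusted p under 0.05, 300 lay above and 87 below.

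The transcript with the largest difference was *Mgp*, matrix Gla protein, a secreted inhibitor of calcification that is abundant in cartilage and vessel walls. *Mgp* lies on chromosome 6 from 136872435 to 136875823 (mm10) and had 1600.4, 2202 and 1641 normalized counts in the P3D8 libraries and 12.1, 5.93 and 1.22 in the P3E3 libraries, a log2FC of 8.26 (SE 0.49, adjusted p = 5.3e-07). It was thus well counted in P3D8 and close to the lower limit of counting in P3E3. *Timp3*, a metalloproteinase inhibitor that stays bound in the matrix, had 6626, 6219 and 7555 in P3D8 and 104, 123 and 104 in P3E3 (log2FC 5.94, SE 0.10, adjusted p = 1.17e-10). *Tgfbi*, an adhesive matrix protein named for its induction by TGF-beta, had 7021, 8174 and 6699.9 in P3D8 and 515, 494 and 473 in P3E3 (log2FC 3.88, SE 0.09, adjusted p = 1.15e-09). These 3 matrix genes combined a large fold with a high count, and every P3D8 library was far above every P3E3 library. That the libraries did not overlap was a condition of the choice. *Dcn*, decorin, a small proteoglycan that binds collagen fibrils, had 403, 445 and 465 in P3D8 and 10.9, 2.96 and 6.09 in P3E3 (log2FC 5.98, SE 0.32). It has 2 entries in the table, and the better counted one is given.

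Where the mean was 50 or more, several of the other large differences were in receptors, membrane proteins and regulators. *Dmrta1*, a transcription factor with a DM domain, had 217, 206 and 194 in P3D8 and 0.604, 0 and 0 in P3E3, where it was seen with 1 read in all, against 966 in P3D8 (ratio 1025, with a 95% counting interval of 184 to 40524). *Itm2a*, a membrane protein, had 291, 328 and 252 in P3D8 and 1.21, 0.593 and 0.609 in P3E3. *Nptx1*, a secreted neuronal pentraxin, had 228, 217 and 276 in P3D8 and 2.41, 2.96 and 2.44 in P3E3. None of these 3 reached 3 normalized counts in any P3E3 library. *Sema7a*, a membrane-anchored semaphorin, had 365 ± 31.9 in P3D8 and 8.22 ± 0.867 in P3E3. *Grpr*, the receptor of gastrin-releasing peptide, had 115 ± 31.5 in P3D8 and 2.40 ± 0.569 in P3E3 (SD, n = 3 each). The complement protein *C3*, the chemokine receptor *Cxcr6*, the prostaglandin F receptor *Ptgfr* and the heparan sulfate-cutting enzyme *Hpse* followed, with log2FCs between 3.91 and 4.80. *Sema7a* has 3 entries and *C3* has 2, and 1 of each is given. *Usp17la* had a log2FC of 5.65, but it belongs to a family of nearly identical genes, so its reads may come from another copy. At this minimum mean, the remaining transcripts of the 20 with the largest log2FC were *Myzap*, *Mgst3*, *Tram1l1*, *Slc9a2* and *Ccl7*, with log2FCs between 3.76 and 4.69.

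In the other direction, at the same minimum mean of 50, the differences were smaller. *Ezr*, ezrin, which ties the cell membrane to actin, had 21.5, 21.2 and 14.9 normalized counts in P3D8 and 343, 347 and 415 in P3E3 (log2FC -4.20, SE 0.18, adjusted p = 5.07e-08). *Ptx3*, a secreted pentraxin of innate immunity, had 41.8, 32.8 and 63.3 in P3D8 and 614, 688 and 384 in P3E3 (log2FC -3.59, SE 0.26). *Rragd*, a Rag GTPase that passes the amino acid signal to mTORC1, had 22.2, 17.4 and 31.7 in P3D8 and 254, 245 and 336 in P3E3 (log2FC -3.52, SE 0.22). No P3D8 library reached a P3E3 library in any of them, which was a condition of the choice. *Rhob*, a small GTPase of endosomes and actin, was the best counted of the 20 transcripts with the largest fall, with 788, 672 and 1044 in P3D8 and 4028, 3637 and 3812 in P3E3 (log2FC -2.22, SE 0.14). The group also held regulators that respond to serum, stress or the time of day. *Nr1d1*, the clock repressor REV-ERB alpha, had 187, 189.6 and 249 in P3D8 and 1178, 1159.7 and 951 in P3E3, and the flow-responsive factor *Klf2* had 36.5, 38.6 and 51.5 in P3D8 and 197, 154 and 183 in P3E3. *Auts2*, *Basp1*, the peptide hormone *Adm*, the triglyceride enzyme *Dgat2*, *Aif1l*, *Setbp1*, *BC005561*, *Phf20l1* and *Tmem86a* had log2FCs from -2.92 to -2.01, and *Slc24a3* completed the 20. The *Srsf3* entry in this group is a noncoding transcript of that splicing gene, with a log2FC of -2.12, and stands for this transcript only. *Phf20l1* is given by 1 predicted transcript of 19 entries and *Slc24a3* by 1 of 2, so these too stand for that transcript only. The 40 transcripts are drawn in the plot of normalized counts by library.

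**Figure D2:**
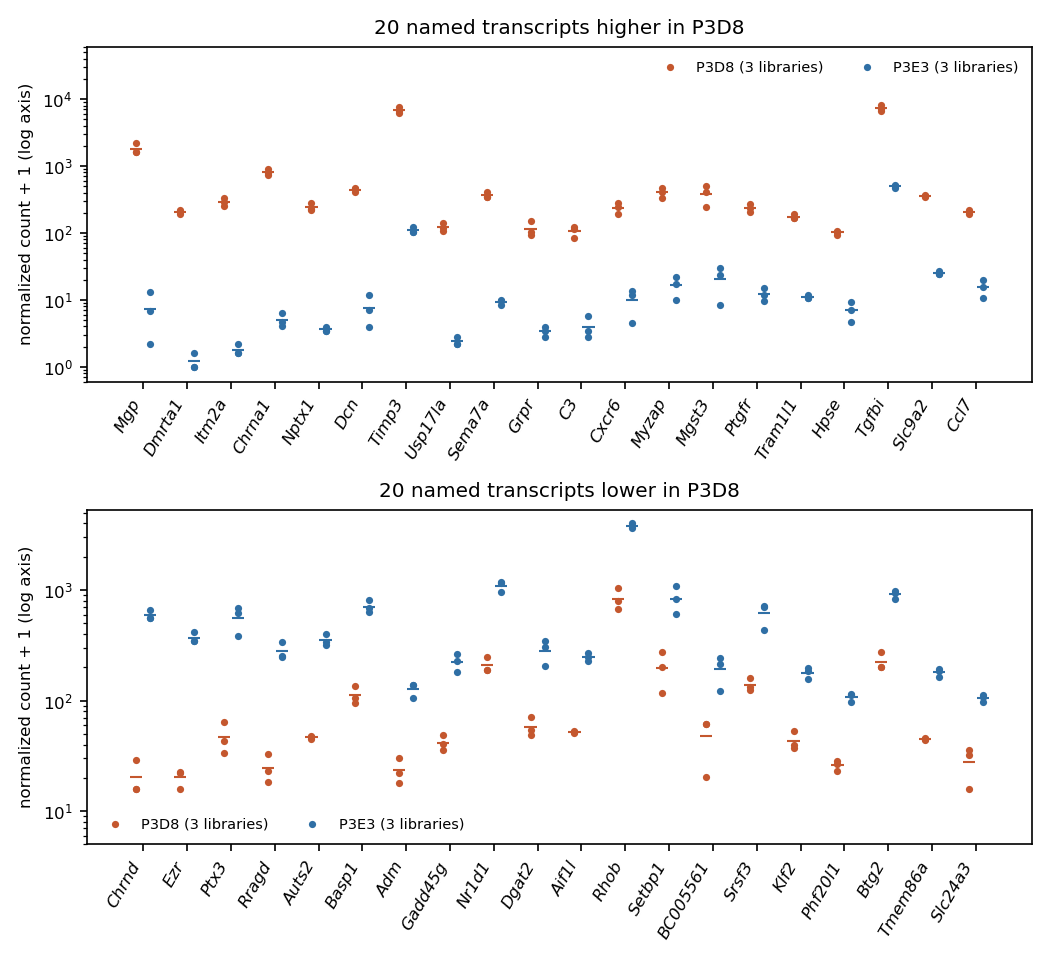
Normalized count + 1 on a log axis in each of the 3 P3D8 and 3 P3E3 monolayer libraries, with a line at each group's mean, for the 20 transcripts with the largest positive and the 20 with the largest negative log2FC among those with a mean of at least 50 and a named gene. No transcript has overlapping groups, which was a condition of the choice, and *Timp3* and *Tgfbi* stand out among the upper 20 for their level in P3D8.

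Subunits of the muscle acetylcholine receptor were divided between the clones. This receptor is a pentamer of the muscle membrane, and its alpha and delta subunits are encoded by *Chrna1* and *Chrnd*. *Chrna1* (chromosome 2 from 73563281 to 73580338) had 777, 890.3 and 729.6 in P3D8 and 3.62, 5.34 and 3.05 in P3E3 (log2FC 7.34, SE 0.20, adjusted p = 2.47e-09). *Chrnd* (chromosome 1 from 87190597 to 87200070) had 15.01, 14.8 and 27.9 in P3D8 and 562, 557 and 661 in P3E3 (log2FC -4.93, SE 0.22, adjusted p = 7.87e-08). The alpha subunit was thus counted well in P3D8 and the delta subunit in P3E3. The libraries of the clones did not overlap for either, which was a condition of their choice. The beta, gamma and epsilon subunit genes *Chrnb1*, *Chrng* and *Chrne*, each with several entries, were listed at 0 in all 6 libraries. Of 10 skeletal muscle markers 8 were listed at 0, and the sum of the 10 was at most 0.643 in P3D8 and 0.609 in P3E3. Only 4 of the 10 have 1 entry, so a 0 in the others is not read as absence.

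Most of the collagens tested were higher in P3D8. Of 35 collagen genes listed 10 were tested, and 8 were higher in P3D8 (26.7% of all transcripts were), 1 was lower (25.5% of all were) and 1 did not pass, with a median log2FC of 2.23. The chains of collagen VI, which forms beaded filaments around cells, were all higher. *Col6a1* had 3665, 4238 and 3169 in P3D8 and 664, 631 and 726 in P3E3 (log2FC 2.44, SE 0.11), and *Col6a2* and *Col6a3*, with 2 entries each, had log2FCs of 2.75 and 3.44. *Col3a1*, the collagen of pliable fibrils, had 20378, 20149.8 and 19038 in P3D8 and 3247, 3441 and 3534 in P3E3 (log2FC 2.54, SE 0.07, adjusted p = 4.7e-09). The chains of collagen I did not move alike. *Col1a1* had 25410.2 ± 2260.1 in P3D8 and 9133 ± 501 in P3E3 (SD, n = 3 each, log2FC 1.47, adjusted p = 5.76e-07), whereas *Col1a2*, with the library values above, had a log2FC of 0.22 and an adjusted p of 0.0546 (0.0317 with DESeq2 and 0.0416 with edgeR). *Col5a2*, a chain of the collagen that sets fibril width, was the 1 that was lower in P3D8, with 9939, 8723 and 10802 in P3D8 and 13439.9, 15147 and 13389 in P3E3 (log2FC -0.51, adjusted p = 0.00122). Among the 7 tested collagens with 1 entry the median was 1.47, 5 were higher and 1 was lower.

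Of 61 proteoglycans and fibre proteins 14 were tested, 9 were higher and 3 lower in P3D8, and the median log2FC was 1.13. *Thbs2*, thrombospondin 2, which acts on collagen fibril assembly, had 6056, 6020.2 and 5239 in P3D8 and 696, 842 and 852 in P3E3 (log2FC 2.86, SE 0.10). The crosslinking enzymes *Tgm2* and *Loxl3* had log2FCs of 2.11 and 1.84. The basement membrane gene *Nid1* was higher, with 3275 ± 211 in P3D8 and 1228 ± 116 in P3E3 (SD, n = 3 each). Its paralog *Nid2* was among the 3 lower members, with 14.4, 6.43 and 6.21 in P3D8 and 26.6, 41.5 and 14.01 in P3E3 (log2FC -1.47, adjusted p = 0.0125), where the highest P3D8 library lay above the lowest P3E3 library. Without replicate 2 of P3E3 the adjusted p of *Nid2* was 0.0585. The heparan sulfate carriers of the membrane were split, *Sdc2* being higher (log2FC 1.26) and *Sdc4* lower (log2FC -0.75).

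Of 50 matrix proteases and their inhibitors 18 were tested. In P3D8 11 were higher and 0 lower in the limma fit (7 did not pass), and the median log2FC was 1.04. Over the 12 with a mean of at least 50 it was 0.24. Secreted collagenases and stromelysins were counted in P3D8 at low levels and hardly at all in P3E3. *Mmp3*, stromelysin 1, had 25.4, 45.6 and 32.3 in P3D8 and 1.21, 0.593 and 2.44 in P3E3 (log2FC 3.91, SE 0.36). *Mmp13*, the collagenase of hypertrophic cartilage, had 41.1, 25.1 and 93.1 in P3D8 and 4.83, 9.49 and 3.65 in P3E3 (log2FC 2.83, SE 0.45, adjusted p = 0.000456). The highest P3D8 library of *Mmp13* was replicate 3, the lowest replicate 2. *Mmp10* and *Mmp9* had log2FCs of 3.62 and 3.13, and *Plat*, the tissue plasminogen activator, 1.98. The most counted inhibitor of the list was *Timp2*, with 14892, 14036 and 16684 in P3D8 and 11043, 10132 and 13198 in P3E3 (log2FC 0.41, adjusted p = 0.00875).

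Receptors for matrix went the same way. Of 45 integrin and focal adhesion genes 9 were tested, 7 were higher and 0 lower in the limma fit, and the median log2FC was 0.96, with 0.41 over the 5 at a mean of at least 50 and 2.34 over the 7 with 1 entry. Of the 4 alpha chains that pair with beta 1 to bind collagen, those of *Itga1*, *Itga2* and *Itga10* were higher in P3D8, and *Itga11* was not tested, with 1.30, 0 and 0 in P3D8 and 1.21, 1.19 and 0 in P3E3. *Itga1* had 41.1, 33.4 and 26.1 in P3D8 and 4.83, 2.96 and 3.65 in P3E3 (log2FC 2.84). *Itga10* had 61.98, 50.8 and 49.7 in P3D8 and 10.9, 10.7 and 7.92 in P3E3 (log2FC 2.35). *Itga2* had 33.9, 23.8 and 16.8 in P3D8 and 1.21, 0.593 and 0 in P3E3, 116 reads against 3, a ratio of 41.0 with a 95% counting interval of 13.7 to 202. These alpha chains were low in count next to their common partner *Itgb1*, which had 13951, 13299.7 and 13988 in P3D8 and 10040.4, 10772 and 11144 in P3E3 (log2FC 0.37, adjusted p = 0.00222). Of 42 cell-cell adhesion genes 11 were tested, 7 were higher and 3 lower, with a median of 0.46 (0.82 over the 6 with 1 entry). *Cldn1*, a tight junction claudin, had 1278, 1198 and 1527 in P3D8 and 275, 277 and 395 in P3E3 (log2FC 2.09, SE 0.15). The nectins, which start cell junctions, were divided, with log2FCs of 1.52 for *Nectin1* and -2.25 for *Nectin2*. The strip plot of the lists sets these groups beside those that follow.

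**Figure D3:**
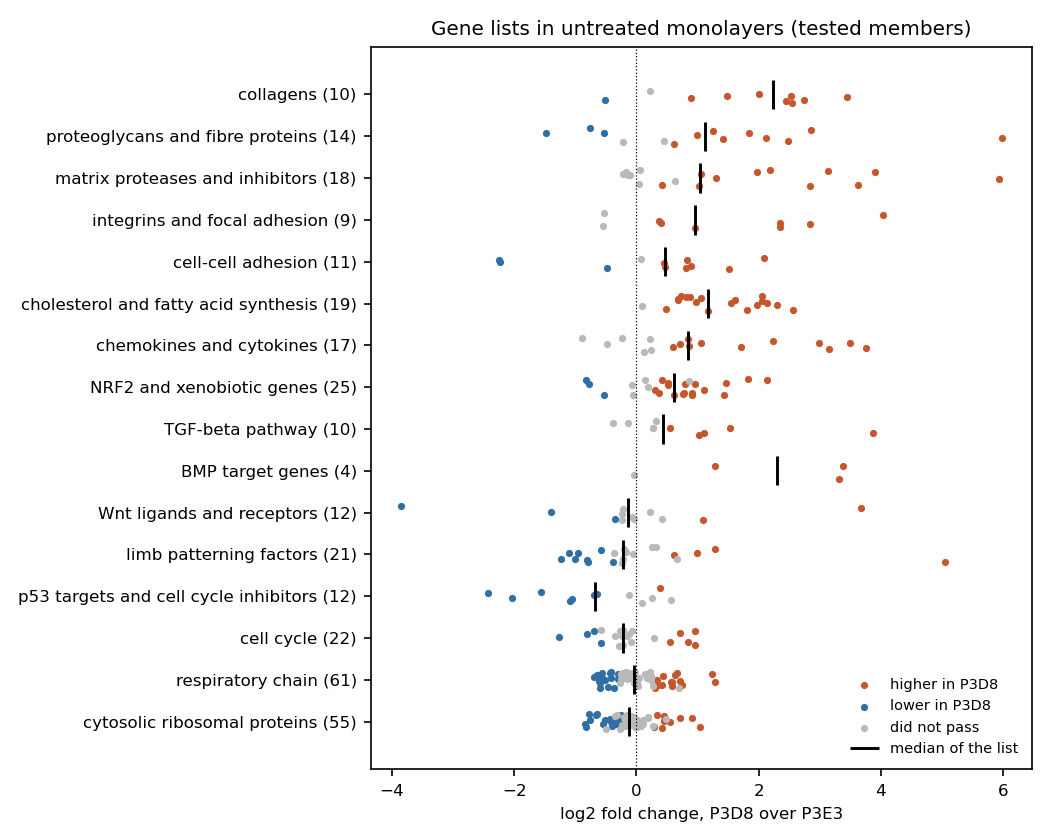
Log2 fold change, P3D8 over P3E3, on the x axis for every tested member of 16 gene lists, 1 entry a gene, coloured by whether it passed an adjusted p of 0.05, with the list's median as a bar and the number tested in brackets. Collagens, proteases, cholesterol genes and chemokines lie mostly right of 0, p53 targets mostly left, and respiratory chain and ribosomal protein genes on both sides.

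Genes of cholesterol and fatty acid synthesis were higher in P3D8 almost without exception. They encode the enzymes that build sterols and fatty acids in the endoplasmic reticulum, and as background they are under the common control of the SREBP factors, which are released when sterols are low. Of 34 genes listed 19 were tested, 18 were higher in P3D8, 0 were lower in the limma fit and 1 did not pass, with a median log2FC of 1.17. Among the 14 with 1 entry 13 were higher (median 1.36). Steps of the sterol pathway led. *Idi1*, which isomerizes isopentenyl diphosphate, had 929.7, 805 and 641 in P3D8 and 138, 175 and 167 in P3E3 (log2FC 2.29, SE 0.15, adjusted p = 8.46e-07). *Cyp51*, lanosterol demethylase, had 5461, 5570.2 and 4220.5 in P3D8 and 1065, 1122 and 1263 in P3E3 (log2FC 2.14, SE 0.11). In both of these the lowest P3D8 library was replicate 3, which still lay above every P3E3 library. *Nsdhl*, *Tm7sf2* and *Msmo1*, further sterol enzymes, had log2FCs of 2.06, 2.06 and 1.55, the squalene-oxidizing enzyme *Sqle* 1.17, the SREBP retention protein *Insig1* 1.81, and *Srebf2*, which encodes SREBP2, 1.05. Enzymes of fatty acids differed less. *Scd1* and *Fasn* had log2FCs of 0.72 and 0.48. *Scd2*, the most counted gene of the list, had 24615, 21802 and 20826 in P3D8 and 18924, 21645 and 22608 in P3E3 (log2FC 0.09, adjusted p = 0.465), where the groups overlapped.

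Promoters of 4 of these sterol genes are shown because the members moved together. The stretches are the 120 bases before the annotated start, 5′ to 3′ on the gene's strand, from RefSeq (GRCm38.p6), and capitals mark CCAAT or its complement ATTGG, the letters bound by the factor NF-Y, which works beside SREBP at many sterol promoters. The motif was picked after the list's values had been seen. Of the 19 tested genes 13 had a promoter in the RefSeq table, and in 11 of these CCAAT was present on either strand within 250 bases before the start, against 33.8% of all 32851 promoters. *Elovl6* and *Fads2* had a promoter without it. The 33.8% includes promoters of genes not counted in these cells. No share was taken over well-counted genes alone, so no enrichment is read from this. A match is a description and no evidence of binding. *Sqle*, *Stard4*, *Scd1*, *Scd2* and *Fads1* were among those with no entry. The stretches lie at chr13:8885486-8885605 (plus strand), chr5:4104698-4104817 (minus), chr19:6067851-6067970 (minus) and chr8:64733579-64733698 (minus) for *Idi1*, *Cyp51*, *Tm7sf2* and *Msmo1*.
Idi1: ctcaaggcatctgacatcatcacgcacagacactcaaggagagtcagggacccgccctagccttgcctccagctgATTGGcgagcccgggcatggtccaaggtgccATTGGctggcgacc
Cyp51: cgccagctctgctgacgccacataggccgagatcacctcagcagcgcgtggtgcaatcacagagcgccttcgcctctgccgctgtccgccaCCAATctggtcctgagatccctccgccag
Tm7sf2: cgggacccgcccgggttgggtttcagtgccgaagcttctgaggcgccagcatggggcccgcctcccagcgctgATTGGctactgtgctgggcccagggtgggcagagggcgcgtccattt
Msmo1: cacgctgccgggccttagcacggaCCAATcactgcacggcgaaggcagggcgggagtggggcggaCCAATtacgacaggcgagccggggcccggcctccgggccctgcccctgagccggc
Counted back from the start, the motif begins at positions -45 and -14 in *Idi1*, -29 in *Cyp51*, -47 in *Tm7sf2* and -96 and -55 in *Msmo1*.

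Chemokines formed the next group. These small secreted proteins attract leukocytes. Of 50 chemokine and cytokine genes 17 were tested, 11 were higher in P3D8, 0 were lower in the limma fit and 6 did not pass, with a median log2FC of 0.84. *Ccl2*, which attracts monocytes, had 1095, 1282 and 1105 in P3D8 and 112, 137 and 68.8 in P3E3 (log2FC 3.49, SE 0.21, adjusted p = 5.29e-07). *Cx3cl1*, a chemokine anchored in the membrane, had 3236, 3449 and 3096 in P3D8 and 404, 431 and 403 in P3E3 (log2FC 2.98, SE 0.08). *Ccl7*, a neighbour of *Ccl2* on chromosome 11, had 189, 202 and 217 in P3D8 and 18.7, 14.8 and 9.75 in P3E3. *Ccl9* and *Ccl5* had log2FCs of 3.15 and 2.23. The prostaglandin enzyme *Ptgs2* was well counted in both clones, with 12697, 9293 and 12479.5 in P3D8 and 5710.3, 5621 and 7779.7 in P3E3 (log2FC 0.85, SE 0.15). *Cxcl10*, induced by interferon, did not pass, with 16.96, 9.64 and 8.69 in P3D8 and 28.97, 30.2 and 11.6 in P3E3 (adjusted p = 0.0751), but did without replicate 3 of P3E3 (0.00759) or replicate 1 of P3D8 (0.0385). Of 46 interferon-stimulated genes 6 were tested and 3 were higher, *Gbp2* (log2FC 3.51), *Ddx58* (0.80) and *Bst2* (0.59).

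Genes of BMP signalling were of interest because the study's treatment acts through it. BMPs bind paired serine kinase receptors, and the *Id* genes, which encode inhibitors of helix-loop-helix factors, are among their direct targets. No BMP was added to these monolayers. *Id2* had 284, 307 and 306 in P3D8 and 26.6, 32.6 and 28.6 in P3E3 (log2FC 3.31, SE 0.14, adjusted p = 5.36e-08), and *Id3* had 218, 275 and 206 in P3D8 and 27.8, 27.3 and 12.8 in P3E3 (log2FC 3.37, SE 0.27). The libraries of the clones did not overlap in either gene. *Msx1*, a homeobox target, had a log2FC of 1.29. Of 14 BMP targets 4 were tested, 3 were higher and 0 lower in the limma fit, with a median of 2.30. *Id1* was listed at 0 in all 12 libraries and has 2 entries, so nothing is read from it. Among ligands *Bmp2* had 22.8, 21.9 and 24.8 in P3D8 and 1.21, 4.74 and 3.65 in P3E3 (log2FC 2.63, SE 0.37), in the better counted of its 2 entries. *Gdf5*, a ligand of the forming joint, had 1.96, 1.29 and 2.48 in P3D8 and 28.97, 38.5 and 29.2 in P3E3 (log2FC -3.52, SE 0.29). These ligands lay in opposite directions, each near the lower limit of counting in the clone where it was low.

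In the TGF-beta pathway 10 of 19 genes were tested, 5 were higher in P3D8 and 0 lower in the limma fit, with a median log2FC of 0.43 (1.06 over the 6 with 1 entry). Beside *Tgfbi* these included the ligand *Tgfb1* (log2FC 1.10) and the target *Ctgf* (1.53). Of 12 tested Wnt ligands and receptors 2 were higher, 3 lower and 7 did not pass, which is no more than over all transcripts, of which 26.7% were higher and 25.5% lower. *Wnt10a* had 249.9, 314 and 330.3 in P3D8 and 32.6, 16.01 and 21.3 in P3E3 (log2FC 3.67, SE 0.24). *Wnt7b* had 1.96, 0 and 0 in P3D8 and 16.9, 23.7 and 18.9 in P3E3, 3 reads against 99, a ratio of 31.1 in favour of P3E3 (95% counting interval 10.3 to 153). *Wnt7b* has 3 entries, of which the best counted is given. The receptor *Fzd8* was higher (log2FC 1.09), whereas *Lgr4*, a receptor that strengthens Wnt signals, and *Fzd2* were lower (log2FCs -1.41 and -0.35).

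Of 12 tested secreted growth factors 4 were higher and 4 lower, not far from the shares over all transcripts (26.7% higher and 25.5% lower). *Ptn*, pleiotrophin, which binds heparan sulfate, had 87.4, 114 and 52.8 in P3D8 and 0.604, 0 and 0 in P3E3, 397 reads against 1, a ratio of 421 with a counting interval of 75.2 to 16679, in the better counted of 2 entries. The EGF receptor ligands *Ereg*, *Areg* and *Hbegf* were higher in P3D8. *Ereg* had 1411, 1294 and 1478 in P3D8 and 486, 443 and 705 in P3E3 (log2FC 1.38), and the log2FC was 2.06 for *Areg* and 0.83 for *Hbegf*. EGF was in the medium of both clones. The receptor gene *Egfr* had 597, 587 and 581 in P3D8 and 425, 572 and 602 in P3E3 and did not pass (adjusted p = 0.315). Of 18 tested genes that ERK signalling induces or that feed back on it, 7 were higher and 3 lower, the largest being *Etv5* (log2FC 2.32), *Spry4* (1.79) and *Egr1* (1.61). *Fgf7* was lower in P3D8, with 696, 633 and 679.9 in P3D8 and 1151, 1172 and 1084 in P3E3 (log2FC -0.76). The insulin receptor substrates *Irs1* and *Irs2* were lower as well (log2FCs -1.08 and -0.83), and *Igfbp6*, which binds IGF2, was higher (1.91).

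The study names genes that set the cartilages of the clones apart, and their values in monolayer follow. Those lists were chosen by the study on its cartilage libraries, not on the monolayers. Of the 16 genes it names for P3D8 cartilage 11 were tested in monolayer, and 4 were higher in P3D8, 0 lower in the limma fit and 7 did not pass, where 52.1% of all transcripts passed in either direction. The median log2FC was 0.16, and 1.01 over the 4 with 1 entry. The 4 were *Dcn*, *Bmp2*, *Ereg* and *Osr1*, a zinc finger factor of joint and loose connective tissue, which had 829, 858 and 941 in P3D8 and 279, 285 and 317 in P3E3 (log2FC 1.57, SE 0.10, adjusted p = 5.94e-07). The tendon factor *Scx* had 213, 234 and 242 in P3D8 and 223, 191 and 204 in P3E3, and the limb mesenchyme factor *Prrx1* had 565, 550.3 and 643 in P3D8 and 607, 671 and 747 in P3E3. Both overlapped between the clones and did not pass (adjusted p 0.269 and 0.13). Of the 13 genes named for P3E3 cartilage only 3 reached the level for testing. *Gdf5* was lower in P3D8, *Mmp13* was higher, and *Ror2*, a Wnt5a receptor, had 97.9, 124 and 130.4 in P3D8 and 133, 113 and 168 in P3E3 (adjusted p = 0.312). The cartilage products themselves were at or near 0. *Acan*, *Prg4* and *Clec3a* were listed at 0 in all 6 monolayer libraries, *Col10a1* was at 1.21 in 1 library and 0 in the other 5, *Cilp* was at most 0.652 in P3D8 and 0.609 in P3E3, and *Frzb* at most 1.93 in P3D8 and 1.22 in P3E3. *Acan* and *Prg4* have several entries, so their 0 is not read as absence. *Sox9*, the master factor of chondrocytes, was counted in both clones, at 721, 738 and 885 in P3D8 and 874, 841 and 920.3 in P3E3 (log2FC -0.17, adjusted p = 0.159), and the difference passed in limma without replicate 3 of P3D8 (adjusted p = 0.0396) and without the replicate 3 of both clones (0.0494).

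Of the 32 transcription factors the study lists for P3D8 cartilage 24 were tested, 9 were higher, 6 lower and 9 did not pass (median 0.37, and 1.04 over the 13 with 1 entry). Over all transcripts 26.7% were higher and 25.5% lower. *Dmrta1* led them. *Zic2*, a zinc finger factor, had 30.7, 29.6 and 36.6 in P3D8 and was listed at 0 in all 3 P3E3 libraries, 152 reads against none, so that it was at least 53.8-fold higher against a floor of 3 reads over the P3E3 group. *Sox21* had 191, 233 and 183 in P3D8 and 31.99, 42.1 and 42.03 in P3E3 (log2FC 2.36, SE 0.17). *Foxf1*, a forkhead factor, had a log2FC of 0.61. Members that were lower in P3D8 monolayer, although listed for P3D8 cartilage, included *Setbp1*, with 199.6, 115 and 274 in P3D8 and 611, 820.0 and 1077 in P3E3, and *Hoxd10*, with 9.13, 8.36 and 7.45 in P3D8 and 21.1, 16.01 and 26.8 in P3E3. Of the 8 factors listed for P3E3 cartilage only *Atf3*, a stress-induced factor, was tested, and it was lower in P3D8 (log2FC -1.01, SE 0.13, adjusted p = 8.69e-05).

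Limb patterning factors, 57 in the list and 21 tested, had 8 members lower in P3D8 and 4 higher, where 25.5% of all transcripts were lower and 26.7% higher. Their median was -0.22, but 0.10 over the 14 with 1 entry, of which 5 were lower and 4 higher, and -0.12 without the genes of chromosomes 2, 7 and 19. Hox genes toward the 5′ end of their clusters specify the distal limb, and 5 of them were among the lower ones. *Hoxd13*, the factor of the digits, had 1604, 1641 and 1745 in P3D8 and 2393, 2431 and 2653 in P3E3 (log2FC -0.58, SE 0.08, adjusted p = 0.000134). *Hoxd9* had 282, 301 and 314 in P3D8 and 697, 630.2 and 604 in P3E3 (log2FC -1.10, SE 0.10). *Hoxd11* was lower as well, and *Hoxd10* and *Hoxa11* had log2FCs of -1.24 and -0.80. All tested Hoxd genes were thus lower in P3D8, and they lie together on chromosome 2, whose genes as a whole were lower, as given below. *Hoxa13* and *Hoxa10*, on chromosome 6 with *Hoxa11*, did not pass (log2FCs 0.31 and -0.24). *Foxc1* and *Foxc2*, related forkhead factors, lay apart, *Foxc1* with 154, 185 and 181 in P3D8 and 319.9, 293 and 403 in P3E3 and *Foxc2* with 766, 788 and 777 in P3D8 and 394, 332 and 453 in P3E3 (log2FCs -0.95 and 0.99).

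Most of the p53 targets and growth inhibitors tested were lower in P3D8. Of 29 p53 targets and cell cycle inhibitors 12 were tested, 7 were lower, 1 was higher and 4 did not pass, with a median log2FC of -0.67 (-1.06 over the 9 with 1 entry). *Btg2*, an antiproliferative protein induced by p53, had 201, 199 and 273 in P3D8 and 946, 988 and 825 in P3E3 (log2FC -2.04, SE 0.13). *Cdkn1b*, the inhibitor p27, had 540.2, 506 and 514 in P3D8 and 1083, 1212 and 962 in P3E3 (log2FC -1.06, SE 0.10). The stress genes *Gadd45g* and *Gadd45b* had log2FCs of -2.43 and -1.56, and *Plk2* -1.09. Genes of the cell cycle itself showed no common direction, with 5 of 22 tested members higher, 4 lower and a median of -0.21, which lay between -0.33 and 0.06 when single libraries were left out. *Ccnb2*, a mitotic cyclin, had 572, 673 and 336 in P3D8 and 291, 341 and 175 in P3E3 and was lowest in replicate 3 of both clones.

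Genes of the antioxidant factor NRF2 and of xenobiotic metabolism were mostly higher in P3D8, 17 of 25 tested against 3 lower (median 0.61). *Sod3*, the extracellular superoxide dismutase, had 2352, 2374 and 2193 in P3D8 and 587, 528 and 467 in P3E3 (log2FC 2.13, SE 0.10), and *Nqo1* had 1465, 1479 and 1292 in P3D8 and 589, 606 and 391 in P3E3 (log2FC 1.44, SE 0.15). *Hmox1*, another NRF2 target, overlapped, with 1881, 1790.3 and 2119.9 in P3D8 and 2191, 2211 and 1698 in P3E3 (adjusted p = 0.641, and 0.0208 without replicate 3 of both clones). Of 12 tested heat shock genes 4 were higher and 5 lower, where 26.7% of all transcripts were higher and 25.5% lower. The cytosolic chaperones *Hspa8* and *Hsp90ab1* were higher (log2FCs 1.33 and 1.03), and the small heat shock protein *Hspb6* and the mitochondrial *Hspe1* were lower (-1.79 and -0.66). Of 13 tested genes of glycolysis and hypoxia 5 were higher and 4 lower, to be set beside the same shares. The lower ones included the oxygen sensor *Egln3* (log2FC -1.71) and the mitophagy receptor *Bnip3* (-0.98).

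Genes of translation and respiration had medians near 0. Of 55 tested ribosomal protein genes 9 were higher, 18 lower and 28 did not pass (median -0.13, and -0.03 without the genes of chromosomes 2, 7 and 19), and the highest was *Rpl37a* (log2FC 1.05). Of 61 tested respiratory chain genes 14 were higher, 16 lower and 31 did not pass (median -0.05), from *Cox6c* (1.28) to *Cox5a* (-0.70). These counts are near the shares over all transcripts (26.7% higher and 25.5% lower). The elongation factor *Eef1a1* was the most counted transcript of both clones, with 212181, 216908 and 202189 in P3D8 and 120109, 125179 and 116752 in P3E3 (log2FC 0.80, adjusted p = 6.26e-05), followed by *Eef2*. The clones shared 7 of their 10 most counted transcripts, among them *Rplp0*, with 44248, 46816 and 42285 in P3D8 and 49107, 47602 and 38815 in P3E3. *Vim*, *Hsp90ab1* and *Actb* were among the 10 only in P3D8, and *Ftl1*, *Hspa9* and *Rpl4* only in P3E3. *Vim*, the intermediate filament of mesenchymal cells, had 59689, 71136 and 44325 in P3D8 and 18542, 17248 and 18394 in P3E3 (log2FC 1.67, SE 0.15), and *Ftl1*, the ferritin light chain, had 22688, 26806 and 24328 in P3D8 and 51894, 45178 and 36333 in P3E3 (log2FC -0.84, SE 0.13).

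Genes of chromosomes 2, 7 and 19 were mostly lower in P3D8. With 1 transcript a gene, the median log2FC was -0.36 over the 338 genes of chromosome 2, -0.36 over the 322 of chromosome 7 and -0.19 over the 173 of chromosome 19, whereas the medians of the other 17 chromosomes lay between -0.06 and 0.13. On chromosome 2, 70.1% of genes had a log2FC below 0, on chromosome 7 72.0% and on chromosome 19 62.4%. Each library showed the difference. Relative to the mean of the 6 libraries and to the median of all genes in each library, the median gene of chromosome 2 lay at -0.17, -0.16 and -0.16 in P3D8 and at 0.15, 0.16 and 0.16 in P3E3 on the log2 scale. For chromosome 7 these values were -0.17, -0.16 and -0.17 in P3D8 and 0.18, 0.15 and 0.15 in P3E3, and for chromosome 19 -0.10, -0.10 and -0.08 in P3D8 and 0.11, 0.09 and 0.06 in P3E3. Libraries of the clones also separated on most other chromosomes, with smaller medians. In monolayer every P3D8 library lay above every P3E3 library on chromosomes 1, 4, 6, 9, 10, 11, 12, 13, 14, 15 and 18. On 1, 4, 10, 12, 13, 14, 15 and 18 this held in cartilage too, as on chromosome 13 with median log2FCs of 0.11 in monolayer and 0.16 in cartilage. The difference on chromosomes 2, 7 and 19 was seen in most windows along them. In windows of 20 Mb with at least 20 genes, the 7 medians of chromosome 2 lay between -0.51 and -0.18, the 7 of chromosome 7 between -0.49 and -0.28 and the 3 of chromosome 19 between -0.23 and -0.19. The last window of chromosome 7, from 140 Mb with 18 genes, was the exception among the smaller windows, at 0.021. The cartilage libraries, which are separate samples of the same clones, had medians of -0.35 on chromosome 2, -0.43 on 7 and -0.26 on 19, and between -0.09 and 0.16 on the others. There the window of chromosome 19 from 20 to 40 Mb, with 31 genes, was at 0.11, and the first 20 Mb of chromosome 2, with 19 genes, at 0.17. No DNA was measured, and what lies behind the difference was not tested.

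These 3 chromosomes held 17.6% of the genes tested, 30.04% of those lower in P3D8 at an adjusted p under 0.05 (362 of 1205) and 9.36% of those higher (119 of 1272). Without them 1169 transcripts were higher and 862 lower at an adjusted p under 0.05, and 269 and 61 with the fold threshold, an alternative chosen after the medians had been seen. The lean of large differences toward P3D8 was therefore present on the other chromosomes. The plot of chromosome medians shows every library in both culture states.

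**Figure D4:**
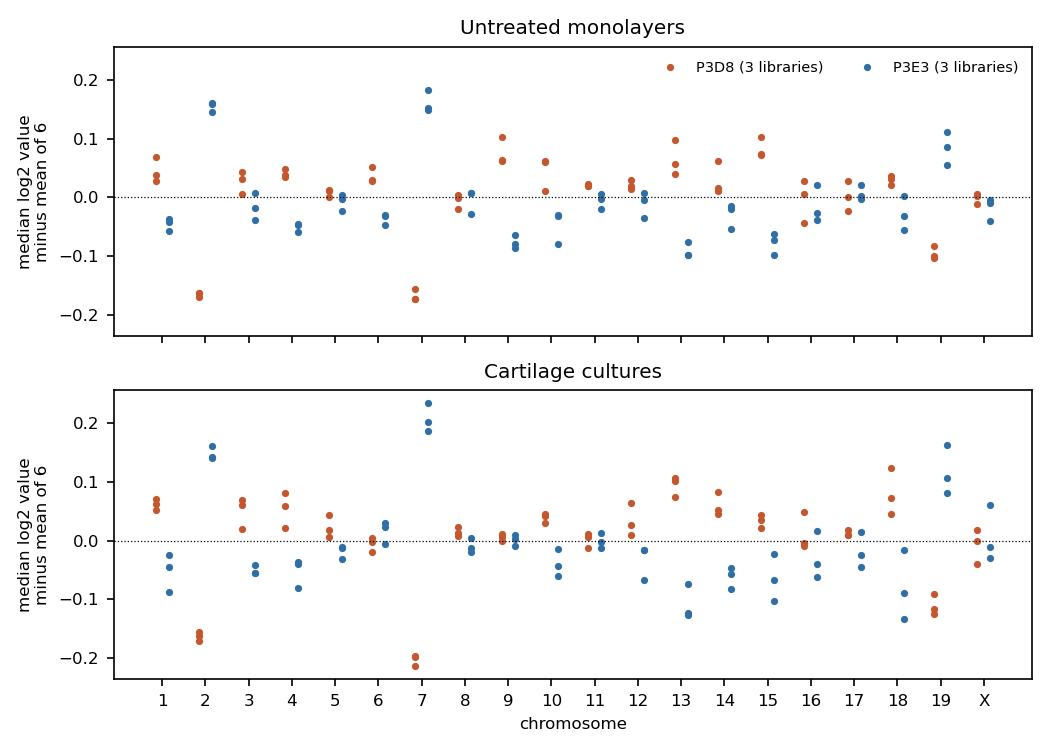
For each chromosome, the median over genes of the log2 value minus the mean of the 6 libraries of that culture state, centred on the median of all genes, as 1 point for each library (3 P3D8 and 3 P3E3). On chromosomes 2, 7 and 19 all P3D8 points lie below all P3E3 points in monolayer and in cartilage, with chromosome 2 at -0.17 to -0.16 in P3D8 monolayers and 0.15 to 0.16 in P3E3 monolayers. Such separation is not particular to these chromosomes, and on chromosome 13, among others, all P3D8 points lie above all P3E3 points in both states.

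To see which of these differences were also present once the clones had formed cartilage, the same 4840 transcripts were compared between the cartilage libraries, which share no library with the monolayers. There 203 were higher and 116 lower in P3D8 (4.19% and 2.40%) with the same thresholds. In both states 84 transcripts were called, 21.7% of the 387 of monolayer and 26.3% of the 319 of cartilage, and 71 of the 84 had the same direction. Of the 300 higher in P3D8 monolayer 243 averaged at least 10 over the cartilage libraries, and of the 87 lower 65 did. The others were little counted in cartilage, so a missing call there is not read as a lost difference. Across the 4840 transcripts the log2FCs of the 2 states had a Pearson's r of 0.28 and a Spearman's rho of 0.20, where the points are genes and not independent replicates. The clone difference itself differed between monolayer and cartilage for 2275 transcripts (47.0%) at an adjusted p under 0.05 in a limma fit of all 12 libraries, 1329 of them with the higher log2FC in monolayer and 946 with the higher log2FC in cartilage. Of the 387 transcripts called in monolayer this held for 304. They were chosen for a large monolayer difference, which is itself part of this contrast. Their share is therefore not to be compared with the 47.0% of all transcripts.

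Among the genes with the largest differences some kept them and some did not. *Ccl7* had 203 ± 14.4 in P3D8 monolayer and 14.4 ± 4.49 in P3E3 monolayer, and 259 ± 8.17 in P3D8 cartilage and 8.17 ± 2.23 in P3E3 cartilage (SD, n = 3 each, log2FCs 3.76 and 4.85). *Wnt10a* (log2FCs 3.67 in monolayer and 4.47 in cartilage), *Col3a1* (2.54 and 1.87), *Osr1* (1.57 and 1.91) and *Ezr* (-4.20 and -2.73) also passed the thresholds in both states with the same sign. *Timp3* stood at 22318 ± 1975 in P3D8 cartilage and 15082 ± 4779 in P3E3 cartilage, so that its log2FC of 5.94 in monolayer stood beside 0.61 in cartilage (adjusted p of the difference 1.12e-09). *Tgfbi* behaved alike, with 3.88 in monolayer and 0.57 in cartilage. *Id2* and *Id3*, higher in P3D8 monolayer, had log2FCs of -0.62 and -0.09 in cartilage, with adjusted p of the difference of 8.07e-11 and 7.85e-07. The sterol genes also differed between the states. *Cyp51* had 1415 ± 65.6 in P3D8 cartilage and 1496 ± 63.7 in P3E3 cartilage (log2FC -0.08, adjusted p of the difference 4.19e-08), and over the 19 genes of the list the median was 1.17 in monolayer and -0.35 in cartilage, with 2 higher and 7 lower there.

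*Mgp* was the extreme case. Beside the log2FC of 8.26 in monolayer it had 1871, 1737 and 1651 in P3D8 cartilage and 2823, 4181 and 4903 in P3E3 cartilage, a log2FC of -1.14 (adjusted p = 0.00144) that lies on the other side of 0 but within the fold threshold. The P3D8 values thus overlapped between the states, whereas every P3E3 cartilage library was far above every P3E3 monolayer library. *Sema3d* is 1 of the 13 transcripts that passed the thresholds in both states with opposite signs. This secreted axon guidance factor had 108, 103 and 79.5 in P3D8 monolayer and 7.24, 12.5 and 10.4 in P3E3 monolayer, and 1451, 1411 and 1470.0 in P3D8 cartilage and 4058, 4090.0 and 6318 in P3E3 cartilage (log2FCs 3.17 and -1.71, adjusted p of the difference 1.31e-08). *Mmp13*, given above for monolayer, had 465, 366 and 393 in P3D8 cartilage and 1709, 1067 and 871 in P3E3 cartilage (log2FC -1.52, adjusted p of the difference 2.37e-05). It is also 1 of the 13. Opposite signs past the thresholds in the same libraries all but fix the adjusted p of the difference, so it adds no support for these transcripts. The plot of both log2FCs shows these transcripts at its upper left and lower right.

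**Figure D5:**
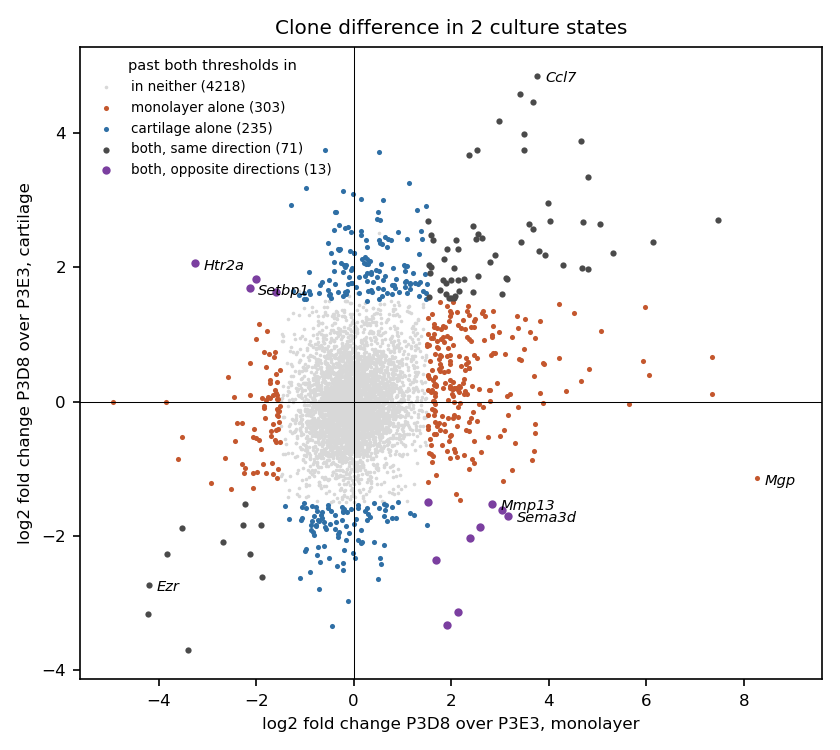
Log2 fold change, P3D8 over P3E3, in monolayer (x axis) and in cartilage (y axis) for the 4840 transcripts, coloured by the state in which the difference passed an absolute log2FC of 1.5 and an adjusted p of 0.05. Of the 84 transcripts past the thresholds in both, 71 have the same sign and 13 opposite signs, and *Mgp*, far to the right, lies below 0 on the y axis.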

How the data were processed

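RNA of P3D8 and P3E3 monolayers and cartilage was sequenced on a BGISEQ-500 (100-bp paired ends). The authors aligned reads to mm10 with HISAT2, counted them per RefSeq transcript with HTSeq and deposited a signal, counts divided by DESeq2 size factors set over all datasets of the study. Versions and strand setting are not given in the sources used here. The authors' own table of fold changes, FDR p-values and means between cartilages was not used.

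Every nonzero value was a whole multiple of 1 read (tolerance 0.01 reads), so reads were recovered for edgeR 4.0.16 and DESeq2 1.42.0 as alternatives. Transcripts with a mean of at least 10 were tested with limma 3.58.1 (R 4.3.3; trend) on log2(value + 1), with Benjamini-Hochberg adjustment over all 4840. Fold changes on this scale understate those of low genes. A call required an adjusted p under 0.05, with or without an absolute log2FC of 1.5. The interaction used all 12 libraries. Each gene is given by its best counted entry. Counting intervals are exact (95%) and cover counting error only. The fit was tested on simulated data.

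Genes were named by rule: those the study names, the 20 largest changes in each direction (mean of at least 50, no overlap, no predicted genes), up to 8 most changed and 4 most counted members of each list, the 10 most counted transcripts and cell type markers. *Sema3d*, *Chrnb1*, *Chrng*, *Chrne* and genes named outside the rule were chosen after their values were seen. Some genes are not reported here. Members and lists were chosen with earlier results of these data known. Alternatives changed the normalization, tool, filter, pseudocount, entries, libraries and block.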

Additional observations from a re-analysis of the deposited data

Results flagged for a closer look

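Of the 84 transcripts called in monolayer and in cartilage, 13 had opposite signs, and for each the test of the difference itself, the interaction of clone and culture state in the limma fit of all 12 libraries, passed an adjusted p of 0.05. Choosing opposite signs past the thresholds in the same libraries all but fixed that outcome, so the passing test adds no support. The interaction is the log2FC in monolayer minus that in cartilage, P3D8 over P3E3 in both. The 9 transcripts with a positive interaction were higher in P3D8 monolayers and lower in P3D8 cartilage, and the 4 with a negative one were lower in P3D8 monolayers and higher in P3D8 cartilage. What lies behind them was not tested.

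In *Sema3d* the interaction was 4.88 and in *Mmp13* 4.36, with the library values given above. *Smpdl3a*, a secreted phosphodiesterase, had 19.2 to 21.9 normalized counts in P3D8 and 0 to 3.65 in P3E3 monolayers, and 597 to 678 in P3D8 and 1722 to 2153 in P3E3 cartilage (interaction 4.65). *Tubb3*, a beta tubulin best known from neurons, had 173 to 299.6 normalized counts in P3D8 and 21.9 to 66.4 in P3E3 monolayers, and 7.46 to 21.4 in P3D8 and 43.8 to 78.1 in P3E3 cartilage (interaction 4.43). *Kctd4*, a protein with a tetramerization domain, had 206 to 211 normalized counts in P3D8 and 54.9 to 76.7 in P3E3 monolayers, and 37.2 to 59.7 in P3D8 and 226 to 282 in P3E3 cartilage (interaction 4.06). *Npl*, an enzyme that cleaves sialic acid, had 18.6 to 36.6 normalized counts in P3D8 and 7.11 to 9.14 in P3E3 monolayers, and 2.98 to 7.12 in P3D8 and 9.96 to 16.5 in P3E3 cartilage (interaction 3.03). Both entries of *Sstr2*, a somatostatin receptor, were among the 9. The first had 125 to 159 in P3D8 and 23.8 to 34.4 in P3E3 monolayers, and 0.824 to 6.71 in P3D8 and 29.8 to 42.9 in P3E3 cartilage. Their interactions were 5.28 and 5.24, and since they belong to 1 gene they are not independent.

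The other 4 ran the opposite way. *Bdkrb1*, a bradykinin receptor, had 4.57 to 5.14 normalized counts in P3D8 and 12.2 to 19.6 in P3E3 monolayers, and 55.9 to 82.3 in P3D8 and 13.8 to 25.7 in P3E3 cartilage (interaction -3.22). *Svep1*, a large secreted matrix protein, had 6.43 to 18.9 normalized counts in P3D8 and 30.8 to 52.2 in P3E3 monolayers, and 774 to 995 in P3D8 and 219.9 to 271 in P3E3 cartilage (interaction -3.83). *Setbp1*, the SET-binding nuclear protein, had 115 to 274 normalized counts in P3D8 and 611 to 1077 in P3E3 monolayers, and 921 to 1509 in P3D8 and 332 to 487 in P3E3 cartilage (interaction -3.82). *Htr2a*, a serotonin receptor, had 3.21 to 5.22 normalized counts in P3D8 and 39.7 to 71.9 in P3E3 monolayers, and 13.5 to 20.6 in P3D8 and 1.65 to 6.87 in P3E3 cartilage (interaction -5.31).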

How the results depend on the processing

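The 387 calls were compared under every alternative, limma unless another tool is named. With the replicates 3 regrouped by the recorded cell line, 0 transcripts were called in either direction, with or without the fold threshold (48 of 4840, or 0.992%, at an unadjusted p under 0.05), and *Col1a2* (log2FC -0.011), *Mmp13* (-0.057), *Ror2* (0.020) and *Scx* (-0.0064) changed sign. With the fold threshold, 157 were higher and 44 lower at a minimum mean of 50, 583 and 182 with no minimum, 211 and 56 among genes with 1 entry, and 254 and 55 with a pseudocount of 5. edgeR called 319 and 96, DESeq2 312 and 97. The minimum mean of 50 also moved the medians of chromosomes 2 and 7, to -0.40 and -0.33. Leaving out 1 library gave 291 to 318 higher and 78 to 93 lower with the fold threshold, 1120 to 1295 and 998 to 1164 by adjusted p alone, and 1185 to 1350 positive and 807 to 1017 negative interactions. Replicate numbers did not pair the libraries (r of same-numbered deviations -0.29, -0.15 and 0.13). With the replicate block, 300 and 87 were called with the fold threshold, 1225 and 1134 by adjusted p alone, and 1259 positive and 886 negative interactions.

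The other alternatives were followed gene by gene for 159 of the tested genes named in the report, not for all. Only *Rplp0* among them changed sign, with log2FCs of 0.011 with TMM scaling, 0.0037 with edgeR and -0.12 to 0.047 with 1 library left out. Of the genes flagged for a closer look, only *Sema3d*, *Mmp13* and *Setbp1* were among the 159. *Col1a2* passed with DESeq2, edgeR, TMM scaling or no minimum, *Cxcl10* with the block, and *Hoxa13* in the fit of all 12 libraries. Values under about 10 rest on few reads, and their fold depends on the pseudocount.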
